A study of Mus musculus with 4 samples.

Results

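The genes described here carry the insulin and insulin-like growth factor (IGF) signal: 10 genes were chosen by symbol, Insr, Irs1, Irs2, Igf1, Igf1r, Igf2r, Pik3r1, Akt1, Akt2 and Foxo1, of 24625 genes in the authors' gene models. All 10 symbols were found once in each count table, and 9 of the 10 passed the filter on low counts; Irs1 did not. RNA came from peritoneal macrophages of C57BL/6 mice (C57BL/6J in the series' design text) fed either standard chow, the control diet, or a high-fat diet with 60% of its energy as fat, for 12 weeks. All mice of both diets, the controls included, were injected with 3% thioglycollate medium, an irritant placed in the peritoneal cavity, 4 days before collection, so every library describes elicited macrophages. There were 2 libraries per diet, and nothing in the labels says if each is 1 mouse or a pool. P-values therefore measure only the spread between these libraries, which may be technical.

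Insulin and IGF1 bind related receptor tyrosine kinases, encoded by Insr and Igf1r. The activated receptors phosphorylate the adaptor proteins IRS1 and IRS2, which recruit phosphoinositide 3-kinase (PI3K) through its regulatory subunit; the lipid made by PI3K brings AKT kinases to the membrane, and AKT phosphorylates FOXO1 and so keeps this transcription factor out of the nucleus. Macrophages are a known source of IGF1, and obesity induced by diet is a standard model of insulin resistance in mice.

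Counts on genes ran from 39347347 to 45658551 per library. Of the 13 macrophage markers none was at 0, with Lyz2 at 16399 to 22930 CPM (counts per 1000000, scaled to each library's TMM-adjusted total). Macrophage markers summed to 37126 to 37586 CPM with control diet and 29978 to 33950 CPM with high-fat diet, and Lyz2 alone is a large part of each sum. Of the 13, 12 had log2 fold changes below 0 (median -0.18), where 50.8% of all kept genes did. edgeR called 1 of the 13 lower (adjusted p under 0.05), where it called 0.612% of all kept genes. For 8 of the 13 both high-fat libraries were lower than both controls, against 24.9% of all kept genes. Of 12 neutrophil markers 8 were kept, all 8 with log2 fold changes below 0 (median -1.19); 2 of them, Mmp9 and Csf3r, were called lower by edgeR (adjusted p = 0.0161 and 0.0476). Neutrophil markers summed to 90.9 and 93.9 CPM with control diet and to 58.7 and 55.5 CPM with high-fat diet, while of the granule genes Elane was at 0 in all libraries and Mpo, Camp and Ngp had 0 to 2 counts. Adipocyte markers summed to 0.0250 to 0.149 CPM over 7 genes, with Lep and Cfd at 0 in all libraries.

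No member passed an adjusted p of 0.05 between the diets. By edgeR's quasi-likelihood test over 12747 kept genes, 0 of 9 members were called in either direction, against 0.612% of all genes; DESeq2 and limma-voom also called 0, where they called 2.87% and 0.220% of all genes. At an unadjusted p under 0.05 edgeR listed 3 members, Igf1r and Insr lower and Pik3r1 higher with high-fat diet, while 17.0% of all genes met that mark (8.46% lower, 8.56% higher). The 2 diets did not overlap for 4 of the 9 members, 3 lower (Igf1r, Insr, Irs2) and 1 higher (Pik3r1); over all genes 51.0% were so separated, 24.9% lower and 26.1% higher. The share of separated members is thus no higher than in the whole table. The median log2 fold change (high-fat over control) of the 9 members was -0.24, against -0.0054 for all kept genes, and it ranged from -0.29 to -0.06 when 1 library was left out, with -0.06 without control replicate 1 and -0.12 without high-fat replicate 2. After removal of the trend with GC content and exon length the members' median was -0.08, against -0.02 for all genes in that fit. In these bulk libraries fewer cells of a type and less RNA per cell cannot be told apart, and the part of the lower macrophage and neutrophil marker sums in these values was not tested.

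Levels were compared between genes as CPM per kilobase of merged exon. Igf2r stood highest at 64.6 ± 5.30 CPM per kilobase (SD over 4 libraries), above 91.4% of kept genes, and Igf1 second at 34.4 ± 5.99, above 85.0%. Akt1 (14.9 ± 2.61), Akt2 (11.7 ± 1.52) and Pik3r1 (10.6 ± 1.33 CPM per kilobase) formed a middle group in which the neighbours' ranges overlap. Insr followed at 3.75 ± 0.372, Foxo1 at 1.23 ± 0.111, Igf1r at 0.796 ± 0.226, Irs2 at 0.255 ± 0.0386 and Irs1 at 0.0161 ± 0.00732 CPM per kilobase. Outside the middle group, the ranges of neighbouring genes did not overlap. The adaptor genes were therefore the least abundant members and the receptor Igf2r with the ligand gene Igf1 the most abundant.

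**Figure D1:**
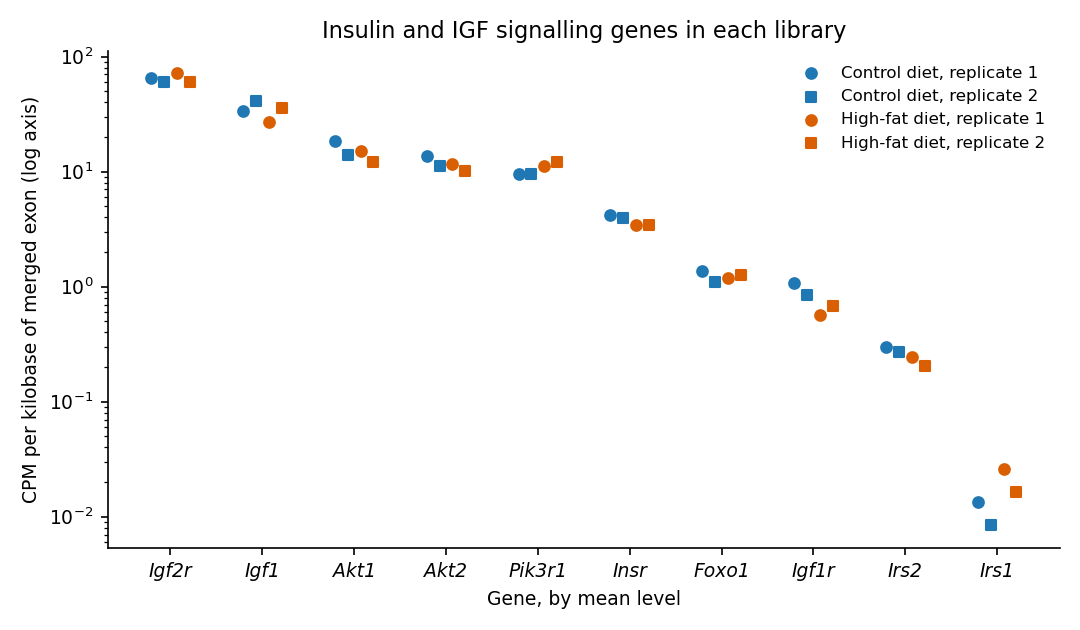
Level of each gene in each of the 4 libraries, in CPM per kilobase of merged exon on a log axis; blue marks are control libraries, orange marks high-fat libraries, circles replicate 1 and squares replicate 2. Igf2r lies between 60.3 and 71.6 in all libraries and Irs1 between 0.00843 and 0.0259, and the diets differ far less than the genes do.

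Of the promoters in the RefSeq table (GRCm38.p6, from 250 bases before to 50 after a transcript start), 14 belong to 9 of the members; Insr had no entry. Each was searched on both strands for 3 short motifs: GTAAACA (reverse TGTTTAC), a core that FOXO proteins bind; CAAAACA (reverse TGTTTTG), the insulin response core of insulin-repressed promoters; and GGGCGG (reverse CCGCCC), the GC box, whose copies can overlap one another. The promoters of Irs1, Irs2 and Igf1r are shown because the adaptors were the least abundant members and Igf1r had the largest diet difference of the 9 kept members; capitals mark the motif matches.
Igf1r, chr7:67952007-67952306, plus strand: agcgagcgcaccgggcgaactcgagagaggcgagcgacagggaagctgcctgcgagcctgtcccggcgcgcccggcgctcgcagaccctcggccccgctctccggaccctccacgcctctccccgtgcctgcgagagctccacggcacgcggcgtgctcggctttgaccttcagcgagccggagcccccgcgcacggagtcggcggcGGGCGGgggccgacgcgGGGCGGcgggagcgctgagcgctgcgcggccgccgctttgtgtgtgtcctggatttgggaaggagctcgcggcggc
Irs1, chr1:82291390-82291689, minus strand: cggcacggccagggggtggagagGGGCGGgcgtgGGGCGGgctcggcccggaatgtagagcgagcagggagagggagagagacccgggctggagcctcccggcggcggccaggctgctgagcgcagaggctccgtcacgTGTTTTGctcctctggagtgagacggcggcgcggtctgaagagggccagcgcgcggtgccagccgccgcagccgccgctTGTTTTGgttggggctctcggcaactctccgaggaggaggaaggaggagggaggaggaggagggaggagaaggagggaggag
Irs2, chr8:11008880-11009179, minus strand: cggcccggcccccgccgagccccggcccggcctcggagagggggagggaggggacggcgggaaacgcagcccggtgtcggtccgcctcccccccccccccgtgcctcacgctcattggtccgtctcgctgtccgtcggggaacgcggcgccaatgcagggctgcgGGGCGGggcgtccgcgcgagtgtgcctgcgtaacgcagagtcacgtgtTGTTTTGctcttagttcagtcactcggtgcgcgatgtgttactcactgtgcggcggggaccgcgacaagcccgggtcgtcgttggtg

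The insulin response core occurs 2 times in the Irs1 promoter and 1 time in the Irs2 promoter, and in no other member's promoter; 6.28% of all 32851 promoters in the table hold it. The FOXO core was found in 1 member promoter, the upstream of the Akt1 promoters, against 3.65% of all promoters. The Igf1r promoter has 76.0% G or C bases, more than 96.9% of all promoters, and 2 GC boxes. At least 1 GC box was found in 35.7% of all promoters, and the share with 2 was not counted. The Igf1 promoter has 52.3% G or C bases, near the median of 52.7%, and none of the 3 motifs. A match is a description of these letters and does not show binding.

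Igf1 encodes the ligand IGF1 (chromosome 10: 87321801 to 87399792, mm9, plus strand, 6 merged exon blocks). It was read at 264 and 325 CPM with control diet and at 211 and 277 CPM with high-fat diet. The lowest library is high-fat replicate 1, but high-fat replicate 2 lies above control replicate 1, so the diets overlap. The log2 fold change was -0.27 ± 0.15 (SE; adjusted p = 0.404, edgeR quasi-likelihood test), with a 95% interval of -0.62 to 0.08. Without high-fat replicate 2 it was -0.48 and passed (adjusted p = 0.0413), in a fit that called 3.81% of all genes; without high-fat replicate 1 it was -0.08. Other ligands were all but missing: Ins1 and Ins2, the insulin genes, had 0 counts in all libraries, and Igf2 had 2, 1, 0 and 2 counts in control replicates 1 and 2 and high-fat replicates 1 and 2.

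Igf1r, the receptor tyrosine kinase for IGF1 (chromosome 7: 75097143 to 75378553, mm9, plus strand, 21 exon blocks), had the largest difference of the 9 kept members. Its level was 13.0 and 10.2 CPM with control diet and 6.83 and 8.08 CPM with high-fat diet. Both high-fat libraries were lower than both control libraries. The log2 fold change was -0.64 ± 0.17 (adjusted p = 0.131), with a 95% interval of -1.03 to -0.25. It passed with no filter on low counts (-0.65, adjusted p = 0.0276), where 3.00% of genes were called, and without high-fat replicate 2 (-0.77, adjusted p = 0.0209); over all alternatives the adjusted p ran from 0.0209 to 0.516 and the value from -0.81 to -0.47.

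Insr, the insulin receptor gene (chromosome 8: 3150922 to 3279617, mm9, minus strand, 21 exon blocks), was read at 39.2 and 36.8 CPM with control diet and at 32.3 and 32.1 CPM with high-fat diet. The high-fat libraries were close to each other and both lower than the controls. The log2 fold change was -0.24 ± 0.10 (adjusted p = 0.281), with a 95% interval of -0.47 to -0.01. Per length Insr exceeded Igf1r in every library, by a ratio of 3.86 and 4.61 with control diet and of 6.06 and 5.09 with high-fat diet. The ratio was higher in both high-fat libraries than in both controls; no test of the ratio was run, and an exact two-sided permutation test of 2 against 2 libraries gives no p below 0.333.

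Igf2r encodes the receptor that removes IGF2 from the surroundings and, as the cation-independent mannose 6-phosphate receptor, carries hydrolases to lysosomes (chromosome 17: 12875272 to 12962572, mm9, minus strand, 48 exon blocks). It stood at 587 and 542 CPM with control diet and at 639 and 538 CPM with high-fat diet. The high-fat libraries held both the highest and the lowest value. Its log2 fold change was 0.06 ± 0.12 (adjusted p = 0.814), the 95% interval ran from -0.21 to 0.33, and the sign turned without high-fat replicate 1 (-0.07). Changes of up to 1.26-fold upwards lie within that interval.

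**Figure D2:**
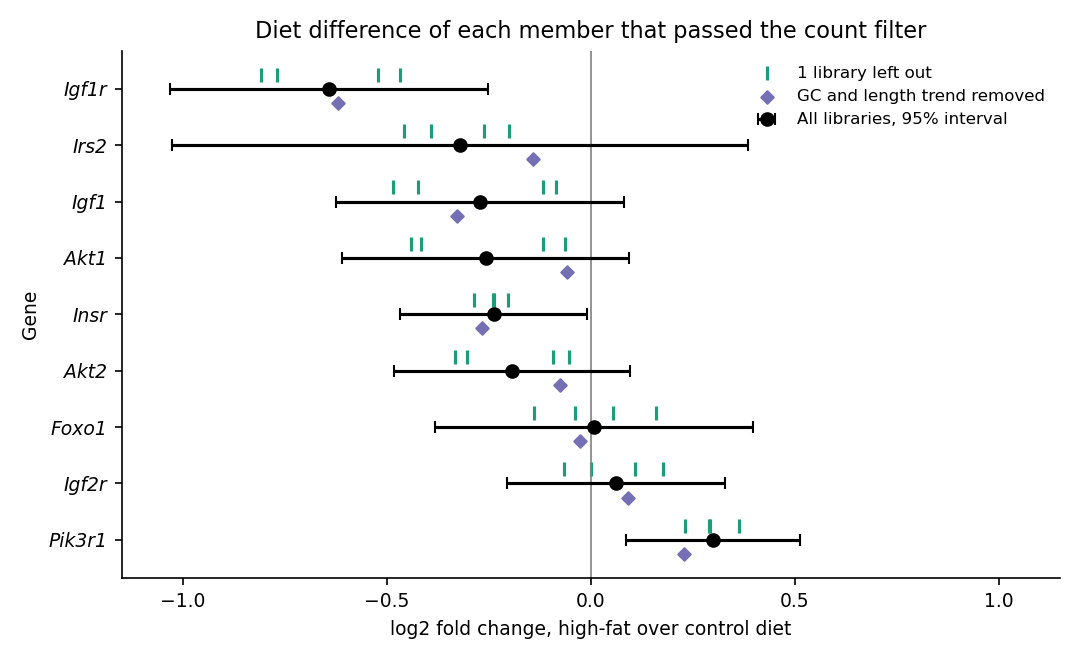
Log2 fold change of the 9 members that passed the filter (high-fat over control diet): black points with bars give the fit of all 4 libraries and its 95% interval, green ticks the fits with 1 library left out, violet diamonds the fit after removal of the trend with GC content and exon length. Igf1r has the lowest value at -0.64, Pik3r1 the highest at 0.30, and Akt1 and Akt2 move toward 0 when the trend is removed.

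The adaptor gene Irs2 (chromosome 8: 10986964 to 11008430, mm9, minus strand, 2 exon blocks) had 48 and 42 counts with control diet and 46 and 33 counts with high-fat diet. In CPM these are 1.19 and 1.08 against 0.991 and 0.826, so the diets did not overlap, but the log2 fold change of -0.32 ± 0.31 (adjusted p = 0.620) has a 95% interval from -1.03 to 0.39. At this depth any level from 0.491 to 1.31 times that of the control libraries lies within the interval. Of its exons 162 bases overlap the antisense gene 9530052E02Rik, and the sources used here do not state if reads were counted by strand. Irs1 (chromosome 1: 82229680 to 82288014, mm9, minus strand, 2 exon blocks) had 5 and 3 counts with control diet and 11 and 6 with high-fat diet, so both high-fat libraries were higher (0.24 and 0.15 CPM against 0.12 and 0.077 CPM). The 17 high-fat against 8 control counts give a ratio of 1.95 with an exact 95% interval of 0.796 to 5.21 for counting error only, and with no filter edgeR gave a log2 fold change of 0.93 ± 0.81 (adjusted p = 0.652). Irs2 exceeded Irs1 per length by 21.9- and 32.0-fold with control diet and by 9.55- and 12.6-fold with high-fat diet, ratios that rest on the few Irs1 counts.

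Pik3r1 encodes the PI3K regulatory subunit p85-alpha and its shorter forms (chromosome 13: 102450716 to 102538172, mm9, minus strand, 17 exon blocks). Of the 9 kept members it was the only one higher in both high-fat libraries than in both controls, at 69.9 and 69.7 CPM with control diet and 82.1 and 89.7 CPM with high-fat diet. The log2 fold change was 0.30 ± 0.09 (adjusted p = 0.179), with a 95% interval of 0.09 to 0.51, and it lay between 0.23 and 0.36 over all alternatives, none of which passed (adjusted p from 0.121 to 0.616). Its 2 transcripts in the gene models were counted together, so the forms cannot be told apart.

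Most other PI3K genes had values below 0. Of 14 kept genes in the PI3K list, 10 lay below 0 (median log2 fold change -0.15), where 50.8% of all kept genes did. By edgeR 0 passed over all genes, where 0.612% of all kept genes did. At an unadjusted p under 0.05 it listed 3, all lower, against 8.46% of all kept genes. Pik3cd, the catalytic subunit p110-delta of leukocytes, stood at 40.0 and 31.2 CPM with control diet and at 22.6 and 21.8 CPM with high-fat diet (log2 fold change -0.68 ± 0.13, adjusted p = 0.0630). DESeq2 called Pik3cd lower (adjusted p = 0.00226), as did edgeR without high-fat replicate 1 or without high-fat replicate 2, fits that called 6.37% and 3.81% of all genes. DESeq2 called 2.87% of all genes. Pik3cd was not called by limma-voom (adjusted p = 0.103), nor by edgeR without control replicate 1 (-0.50) or without control replicate 2 (-0.85). After removal of the trend with GC content and exon length its value shrank to -0.46 and just passed (adjusted p = 0.0493, edgeR). With no filter on low counts it also passed (-0.68, adjusted p = 0.00109, edgeR). Pik3cd was lower in the same libraries as the neutrophil markers, whose part in its value was not tested. The gamma subunit gene Pik3cg had -0.21 ± 0.09 and its regulatory partner Pik3r6 had -0.38 ± 0.14 (adjusted p = 0.286 and 0.237). Pik3ca, the alpha catalytic subunit, had 0.01 with a 95% interval of -0.21 to 0.23, and was named after its value was seen.

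**Figure D3:**
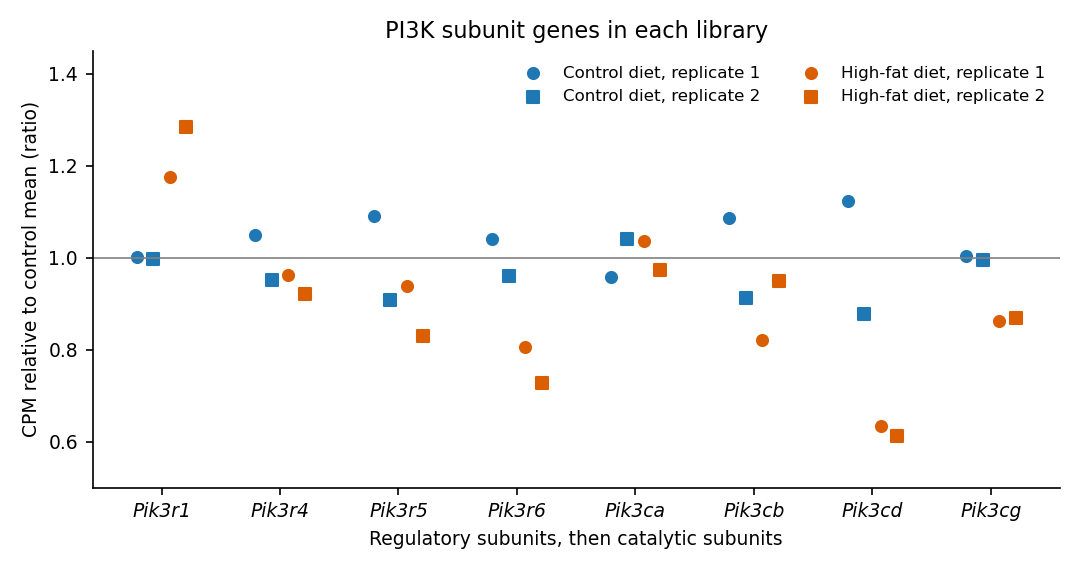
CPM of 8 PI3K subunit genes in each library as a ratio to the mean of the 2 control libraries; blue is control diet, orange high-fat diet, circles replicate 1 and squares replicate 2. Pik3r1 lies above the control libraries in both high-fat libraries, while Pik3cd, Pik3cg and Pik3r6 lie below them.

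Akt1 (chromosome 12: 113892032 to 113912487, mm9, minus strand, 14 exon blocks) and Akt2 (chromosome 7: 28376579 to 28424472, mm9, plus strand, 15 exon blocks) encode serine/threonine kinases; AKT2 is the form most tied to glucose uptake. Akt1 was read at 49.5 and 37.9 CPM with control diet and at 40.3 and 32.7 CPM with high-fat diet. Akt2 was read at 44.6 and 36.5 CPM with control diet and at 38.1 and 32.8 CPM with high-fat diet. Both genes were highest in control replicate 1 and lowest in high-fat replicate 2, and in both the diets overlap. Their log2 fold changes were -0.26 ± 0.15 and -0.19 ± 0.13 (adjusted p = 0.425 and 0.468). Their transcripts are rich in G and C (59.7% and 55.1%), and after removal of the trend with GC content and exon length the values were -0.06 and -0.08; without control replicate 1 they were -0.06 and -0.05. The ratio of Akt1 to Akt2 per length was 1.34 and 1.25 with control diet and 1.28 and 1.20 with high-fat diet, and the diets overlap in it.

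Foxo1, the transcription factor that AKT restrains (chromosome 3: 52072259 to 52154031, mm9, plus strand, 3 exon blocks), stood at 7.53 and 6.08 CPM with control diet and at 6.63 and 7.06 CPM with high-fat diet. The high-fat values lie between the control values. The log2 fold change was 0.01 ± 0.17 (adjusted p = 0.985), and the 95% interval of -0.38 to 0.40 leaves room for changes of up to 1.32-fold. The sign depends on the scaling: with upper quartile normalization the value was -0.0029.

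The rest of the pathway was read from 7 lists that hold 125 genes beside the members, of which 105 were kept. Over all genes edgeR called 0 of the 105 (0.612% of all genes were called), and limma-voom called 0 (0.220% of all genes). At an unadjusted p under 0.05 edgeR listed 26, 9 higher and 17 lower. That is 24.8% of the 105, against 17.0% of all genes. DESeq2 called 8, where it called 2.87% of all genes. Of these 8, Igfbp4, Igfbp7, Grb10 and Eif4e were higher and Cbl, Pik3cd, Phlpp1 and Sgk1 lower. The edgeR count was 10 with no filter, 5 in each direction, where 3.00% of all genes were called. The median log2 fold change over the 105 genes was -0.10, and 50 of 105 were separated between the diets, 47.6% against 51.0% of all genes. Of the 105, 67 lay below 0, 63.8% against 50.8% of all genes.

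Receptor adaptors and brakes had 14 of 18 kept genes below 0 (median -0.19), with 0 called, and 5 lower and 1 higher at an unadjusted p under 0.05. Of all kept genes 50.8% lay below 0, 0.612% were called, and 8.46% were lower and 8.56% higher at that mark. Cbl, a ubiquitin ligase for receptor tyrosine kinases, stood at 163 and 161 CPM with control diet and at 122 and 125 CPM with high-fat diet (log2 fold change -0.39 ± 0.09, adjusted p = 0.0940). Grb2, the adaptor that links receptors to RAS, had -0.30 ± 0.09 (adjusted p = 0.169). Grb10, an adaptor that inhibits the insulin receptor, had 22 and 21 counts with control diet and 260 and 54 with high-fat diet, a log2 fold change of 2.68 ± 0.80 (adjusted p = 0.231) that was 1.31 with high-fat replicate 1 left out and 3.35 with high-fat replicate 2 left out. DESeq2 called Grb10 higher (adjusted p = 4.95e-04), and limma-voom did not (adjusted p = 0.224).

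Of 14 genes of ligands and IGF-binding proteins, 6 were kept, and 8 were too low, 5 of them at 0 in all libraries. Igfbp7 and Igfbp4, which encode secreted IGF-binding proteins, had 1.86 and 2.58 and 2.16 and 1.83 CPM with control diet, and 7.04 and 4.76 and 4.65 and 4.08 CPM with high-fat diet. Their log2 fold changes were 1.41 ± 0.26 and 1.13 ± 0.22 (adjusted p = 0.0521 and 0.0604, edgeR). Both were called higher by DESeq2 (adjusted p = 0.00124 and 0.0188), and limma-voom called neither (adjusted p = 0.0925 and 0.0892). With 1 library left out the values ran from 1.10 to 1.66 for Igfbp7 and from 1.01 to 1.24 for Igfbp4. Exons of Igfbp7 overlap those of Polr2b on the opposite strand. Htra1, a secreted protease that cleaves IGF-binding proteins, had -0.52 ± 0.41 (adjusted p = 0.566), and was called lower without high-fat replicate 1 (-1.26). The binding proteins and Grb10 shared their direction with mesothelial and fibroblast markers. Of 17 such markers 15 were kept, all 15 with log2 fold changes above 0 (median 1.92). edgeR called 1 of the 15 higher, and 11 were higher at an unadjusted p under 0.05, against 8.56% of all genes. None of the 17 was at 0 in all libraries, and their sums were 455 to 464 CPM with control diet and 588 to 659 CPM with high-fat diet. Most of these sums is Pdpn, at 425 to 499 CPM, which macrophages also make. The part of these cells in the values was not tested.

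Among phosphatases that oppose PI3K and AKT, 8 of 11 genes lay below 0 (median -0.12), with 0 called and 3 lower at an unadjusted p under 0.05. The shares over all kept genes were 50.8% below 0, 0.612% called and 8.46% lower at that mark. Phlpp1, which removes a phosphate from AKT, stood at 26.4 and 31.4 CPM with control diet and at 14.3 and 18.1 CPM with high-fat diet. The diets did not overlap, and the log2 fold change of -0.83 ± 0.15 just missed the threshold (adjusted p = 0.0501); DESeq2 (adjusted p = 5.08e-04) called it lower, as did edgeR with upper quartile normalization, with no filter, with a replicate block, or with high-fat replicate 1 or 2 left out. Phlpp1 did not pass with control replicate 1 or 2 left out (adjusted p = 0.141 and 0.144), nor after removal of the trend with GC content and exon length (-0.68, adjusted p = 0.262), and over all alternatives its adjusted p ran from 1.43e-05 to 0.262. The lipid phosphatase Inpp4a had -0.46 ± 0.12 (adjusted p = 0.118) and Synj1 had -0.28 ± 0.09 (adjusted p = 0.189), the latter with exons that overlap an antisense gene.

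**Figure D4:**
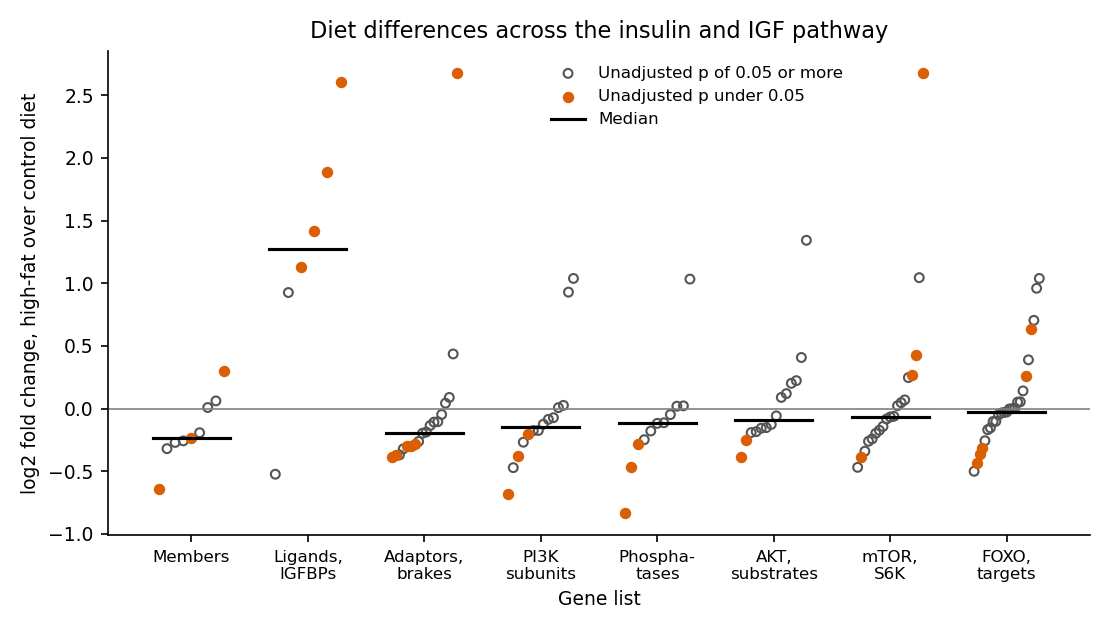
Log2 fold change (high-fat over control diet) of each kept gene in the member list and in the 7 pathway lists; filled orange points have an unadjusted p under 0.05 in edgeR, open points do not, and black bars are list medians. The members' median is -0.24, the ligand and binding protein list lies highest with a median of 1.27, and Grb10 appears in both the adaptor and the mTOR list.

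AKT partners and substrates had 8 of 14 genes below 0 (median -0.09), with 0 called and 2 lower at an unadjusted p under 0.05. Over all kept genes 50.8% lay below 0, 0.612% were called and 8.46% were lower at that mark. Sgk1, a kinase related to AKT, had -0.39 ± 0.12 (adjusted p = 0.178) at 834 and 904 CPM with control diet against 722 and 607 CPM with high-fat diet. Trib2, a pseudokinase that binds AKT, had 1.64 and 1.06 CPM with control diet and 1.79 and 5.11 CPM with high-fat diet, so its log2 fold change of 1.34 ± 0.55 (adjusted p = 0.299) rests on high-fat replicate 2 and was 0.40 without it. In that library B cell markers summed to 243 CPM, against 137 to 156 CPM in the others, and T and NK cell markers to 29.3 against 6.66 to 9.14 CPM; their part in the value was not tested. In the mTOR and S6 kinase list 11 of 19 genes lay below 0 (median -0.07), with 0 called, and 3 higher and 1 lower at an unadjusted p under 0.05. Eif4e, the cap-binding protein released by mTOR signalling, stood at 226 and 247 CPM with control diet and at 300.2 and 338 CPM with high-fat diet (log2 fold change 0.43 ± 0.11, adjusted p = 0.106). DESeq2 called it higher (adjusted p = 0.0187), where it called 2.87% of all genes, and limma-voom did not (adjusted p = 0.131). After removal of the trend with GC content and exon length the value was 0.26 (adjusted p = 0.101, edgeR). Tsc1, a brake on mTOR complex 1, had -0.39 ± 0.11 (adjusted p = 0.138).

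FOXO factors and their textbook targets, Insr and Irs2 left aside, went both ways: 15 of 25 kept genes lay below 0 (median -0.03), with 0 called, and 3 lower and 2 higher at an unadjusted p under 0.05. Of all kept genes 50.8% lay below 0, 0.612% were called, and 8.46% were lower and 8.56% higher at that mark. Sesn1, a stress-response target, had 54.6 and 63.5 CPM with control diet and 46.8 and 44.9 CPM with high-fat diet (log2 fold change -0.36 ± 0.11, adjusted p = 0.154). The cell death gene Bcl2l11 had -0.31 ± 0.11 (adjusted p = 0.201), and S1pr1, a receptor for sphingosine 1-phosphate, had 0.64 ± 0.22 (adjusted p = 0.216), which was 0.26 without high-fat replicate 2. Foxo3, the related factor, was at 11.4 and 9.43 CPM with control diet and 8.44 and 6.96 CPM with high-fat diet (-0.43 ± 0.17, adjusted p = 0.254), and was named after its value was seen.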

How the data were processed

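The authors deposited raw read counts per gene, 1 table per library, and the mm9 gene models behind them. TopHat2 2.0.10, Cufflinks 2.1.1, HTSeq and mm9 are named per the submitters' processing notes; the sources used here give no strand setting. Summary lines that name no gene (alignments at more than 1 place were 37.5% to 48.5% of lines, reads in no gene 13.5% to 15.0%) were left out. Replicates differed far beyond sampling noise (chi-square per degree of freedom 33.8 and 34.9). Genes were kept by filterByExpr (minimum count 10, total 15), leaving 12747, and tested in edgeR 4.0.16 (quasi-likelihood, robust, TMM, diet only, 2 residual degrees of freedom) with Benjamini-Hochberg adjustment and a threshold of 0.05. SE is the log2 fold change over the square root of F. Alternatives used DESeq2 1.42.0, limma 3.58.1 (voom), other scalings and filters, a replicate block, each library left out and, chosen after seeing the data, removal of a trend with GC content and exon length over 12156 RefSeq genes. Fits with 1 library left out assume that the lone library of its diet varies like those of the other diet. The test was checked on simulated counts with the same spread for every gene and planted changes larger than those of the members. That check does not cover differences as small as the members' or a spread that varies between genes.

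Members and lists were chosen with earlier results of these data known. Named beside the members were, per pathway list, genes past the threshold and the 3 smallest p at a mean of at least 1 CPM; others are marked. Merged exon lengths come from the gene models. Ly6g and Pras40 matched no symbol.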

Additional observations from a re-analysis of the deposited data

How the results depend on the processing

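The count of 0 members past the threshold stayed 0 under all alternatives run except 2: it was 1 (Igf1r) with no filter on low counts, and over the fits without 1 library it ran from 0 to 2, with 2 (Igf1 and Igf1r) without high-fat replicate 2. The count of 0 among the other pathway genes became 10 with no filter, 8 by DESeq2, 4 after removal of the trend with GC content and exon length and 1 with upper quartile normalization; without 1 library it ran from 0 to 15, with 15 without high-fat replicate 1, 9 without high-fat replicate 2 and 0 without either control library. With a replicate block it was 1 (Phlpp1), and 0 members passed; same-numbered libraries deviated together at r = 0.0888, the labels name no shared animal or batch, and the block is not read as a pairing. The members' median of -0.24 was -0.075 after removal of that trend. Without 1 library Igf2r ran from -0.066 (without high-fat replicate 1) to 0.18 and Foxo1 from -0.14 (without control replicate 2) to 0.16. Foxo1 was also below 0 with upper quartile normalization (-0.0029), after removal of that trend (-0.027) and without high-fat replicate 2 (-0.039). The cause of these moves was not tested. The 2 libraries per diet limit the precision: Irs2 and Irs1 rest on 33 to 48 and 3 to 11 counts.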
